A study of Homo sapiens with 4 samples.

Results

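YEATS2 and 9 genes of the complex it belongs to were followed in 4 RNA-seq libraries of BICR10, a cell line labelled as head and neck cancer. The 10 genes, taken by name from 60623 genes, were YEATS2, KAT2A, KAT14, TADA2A, TADA3, ZZZ3, MBIP, DR1, WDR5 and POLE3, which are subunits of the ATAC (Ada-Two-A-containing) histone acetyltransferase complex or proteins found with it. Of these, 9 were found by their symbol, and ZZZ3, which the files list under the placeholder AC118549.1, by its Ensembl identifier ENSG00000036549. All 10 genes passed the filter on low counts, which kept 17058 genes. The libraries came from cells transduced with lentivirus carrying a control hairpin (shControl, n = 2) or a hairpin against YEATS2 (shYEATS2, n = 2), and the study's methods give puromycin selection for such cells. More than 1 YEATS2 hairpin is listed in the study, and which of them each library carried was not given in the sources used here. The study states in general that its experiments were repeated as independent biological replicates, but neither the labels nor the RNA-seq methods say how the libraries of a group relate. The p-values measure the spread between these libraries, which may be technical in part.

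ATAC places acetyl groups on the tails of histones and carries a pair of catalytic subunits, KAT14 and either KAT2A or its paralog KAT2B. Adaptor proteins hold the enzymes, and reader domains bring the complex to chromatin. YEATS2 is one such reader, whose YEATS domain binds acylated lysines of histone H3, crotonyl-lysine included. KAT2A, TADA3 and SGF29 also serve in SAGA, a larger coactivator, in which TADA2B stands where ATAC has TADA2A.

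The total on genes was 39824898 to 47297970 counts in shControl and 11334133 to 24072396 in shYEATS2, so that depth and condition cannot be told apart. With every library thinned at random to 11334133 counts, 2 of the 10 genes were called lower and 4 higher, as at full depth. The labelled cell type was compared with marker lists. Squamous markers summed to 209 to 210 CPM (counts scaled to a common library size) in shControl and to 136 to 145 CPM in shYEATS2, and 5 of the 8 tested of 10 listed fell while CDH1 rose. The markers were uneven. SFN stood at 126 to 136 CPM in every library (log2 fold change 0.02), KRT6A at 54.9 and 58.1 CPM in shControl and 1.38 and 2.20 CPM in shYEATS2, and KRT5 at 16.4 and 14.9 CPM against 1.02 and 1.36 CPM. In contrast, TP63 had 0 to 3 counts in every library, and KRT14, EPCAM and CDH1 were at no more than 1.23, 1.23 and 2.84 CPM. Fibroblast markers summed to 7205 to 7295 CPM in shControl and to 2221 to 2361 CPM in shYEATS2, with 7 of the 8 tested of 9 listed lower, COL1A1 and COL1A2 among them. Endothelial markers summed to 35.6 to 36.6 CPM against 18.9 to 20.2 CPM (1 lower and 1 higher of 3 tested), with CDH5 at 0 to 1 count. Most of this was KDR, at 33.7 and 35.1 CPM in shControl and 17.0 and 17.4 CPM in shYEATS2. PECAM1, VWF and TEK were at no more than 1.86, 0.339 and 0.593 CPM. Leukocyte markers summed to 1.69 to 1.85 CPM against 0.552 to 1.44 CPM (1 lower of 1 tested), with CD3E and CD68 at 0 in every library. The part of these markers in the results on the 10 genes was not tested. In bulk libraries, fewer cells of a type and less RNA per cell cannot be told apart.

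Stretches of 250 bases upstream of the annotated gene starts are shown for the 3 partners whose RNA changed most, since SP1, a factor that binds GC boxes, is one of the genes the study works with. Sequence was read 5′ to 3′ along each gene's own strand from the hg38 genome at GENCODE 44 starts. Capitals mark each GC box, GGGCGG or its reverse complement CCGCCC, searched on both strands.
KAT2A chr17:42121368-42121617 (−): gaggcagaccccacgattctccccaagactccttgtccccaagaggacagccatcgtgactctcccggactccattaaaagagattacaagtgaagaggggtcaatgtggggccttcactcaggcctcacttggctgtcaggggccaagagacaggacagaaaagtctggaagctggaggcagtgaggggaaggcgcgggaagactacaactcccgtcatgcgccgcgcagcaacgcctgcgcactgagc
TADA2A chr17:37406636-37406885 (+): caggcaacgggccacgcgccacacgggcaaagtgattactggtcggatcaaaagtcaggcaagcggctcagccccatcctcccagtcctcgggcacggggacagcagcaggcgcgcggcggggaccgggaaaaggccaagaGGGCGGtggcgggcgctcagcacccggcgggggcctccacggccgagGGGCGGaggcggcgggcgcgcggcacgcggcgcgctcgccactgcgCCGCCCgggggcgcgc
DR1 chr1:93345657-93345906 (+): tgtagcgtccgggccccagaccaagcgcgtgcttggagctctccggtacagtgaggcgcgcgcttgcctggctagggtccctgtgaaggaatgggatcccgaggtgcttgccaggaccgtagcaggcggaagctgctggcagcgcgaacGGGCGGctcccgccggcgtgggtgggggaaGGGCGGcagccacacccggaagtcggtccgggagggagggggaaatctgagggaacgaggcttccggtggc
TADA2A held 3 boxes and DR1 held 2, whereas the letters did not occur in the stretch of KAT2A. Among the other partners, ZZZ3 held 2 boxes, TADA3, MBIP, WDR5 and POLE3 held 1 each, and KAT14 held 0. Thus 7 of the 9 partners had at least 1 box, against 51.6% of the 16990 stretches of tested genes read in the same way. Which start these cells use was not tested. The TADA2A stretch was 76.4% G and C and that of DR1 69.6%, above the 60.8% median of all these stretches, while KAT2A had 58.8% and KAT14 46.4%. These matches describe letters only.

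YEATS2, the gene targeted by the hairpin, fell in both shYEATS2 libraries. Its counts were 3000 and 2521 in shControl 1 and 2, and 741 and 343 in shYEATS2 1 and 2. On the scale of CPM with TMM factors, which correct library totals for composition, the levels were 66.1 and 66.7 in shControl and 29.2 and 29.1 in shYEATS2. Libraries of a condition lay within 0.581 CPM of each other, and the conditions were far apart. The mean level went from 66.4 ± 0.411 to 29.1 ± 0.105 CPM (SD, n = 2 each), which left 43.95% of the control level (95% interval 39.5% to 49.0%). The log2 fold change fitted by edgeR was −1.19 ± 0.078 (SE), with an adjusted p of 3.55e-21 over all tested genes. As the aim of the hairpin, this fall checks the labels and is no finding about the complex. YEATS2 ranked 556th from the largest fall among the 17058 genes. The gene lies at chr3:183697797-183812624 on the + strand of GRCh38, and an antisense gene, YEATS2-AS1, covers 11.4% of its exon sequence. YEATS2-AS1 had 16 and 17 counts in the control libraries and 5 and 1 in the knockdown, beside 343 or more for YEATS2.

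**Figure D1:**
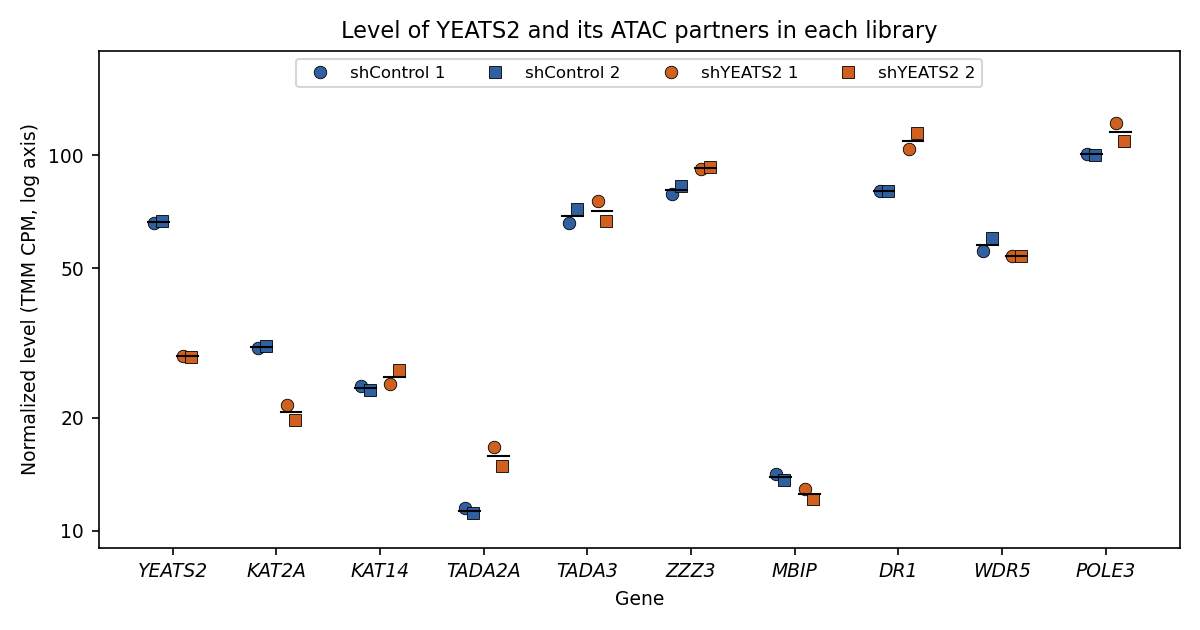
Level of each of the 10 genes in every library, as TMM-normalized CPM on a log axis (blue, shControl; orange, shYEATS2; circles and squares, libraries 1 and 2; black bars, group means). YEATS2, KAT2A, MBIP and WDR5 lie lower in both shYEATS2 libraries, and KAT14, TADA2A, ZZZ3, DR1 and POLE3 higher. The libraries of TADA3 overlap. KAT14, MBIP and WDR5 were not called.

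With YEATS2 silenced, the partners did not move as a block. KAT2A fell, TADA2A and DR1 rose, ZZZ3 and POLE3 rose by smaller amounts, and KAT14, TADA3, MBIP and WDR5 did not pass the test. Counting YEATS2, 2 of the 10 genes were called lower, where 23.6% of all tested genes were, and 4 were called higher, where 22.6% of all genes were. Without YEATS2, 1 of the 9 partners was called lower and 4 higher, with a median log2 fold change of 0.09 beside −0.01 for all tested genes. The conditions did not overlap for 9 of the 10 genes, with the knockdown below in 4 (36.3% of all genes) and above in 5 (35.2% of all genes). The 2 lower calls are near the background share and the 4 higher calls above it, and nothing particular to the complex was read from counts this small. The knockdown left the summed level of the 9 partners at 523 and 512 CPM, beside 462 and 475 CPM in shControl.

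Among the catalytic subunits, KAT2A (GCN5), the acetyltransferase that ATAC shares with SAGA, had 30.6 and 31.1 CPM in shControl and 21.6 and 19.7 CPM in shYEATS2. Both knockdown libraries were lower than both controls, by more than the spread within either condition. The log2 fold change was −0.57 ± 0.091 (SE; edgeR adjusted p = 3.37e-07), which left 67.5% of the control level (95% interval 59.5% to 76.6%). KAT2A thus fell less than YEATS2, and was the partner with the lowest fold change. The value stayed between −0.66 and −0.52 with any library left out and between −0.61 and −0.43 under 10 other settings of scaling, filter, test, block, depth or adjusted p, past the threshold in each, although the fall is short of 2-fold. KAT2A lies at chr17:42113111-42121367 on the − strand. Of its exon sequence, 10.7% is shared with another gene on that strand, ENSG00000267261, which had 0 counts in every library. Alignments on no single gene were left out, so this 0 does not show how the overlap bears on KAT2A.

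KAT14, the second acetyltransferase of ATAC, had 24.2 and 23.7 CPM in shControl and 24.5 and 26.9 CPM in shYEATS2. The libraries nearly touched, and the log2 fold change was 0.09 ± 0.092 (SE; 95% interval −0.09 to 0.27; edgeR adjusted p = 0.448). A rise of more than 20.8% or a fall of more than 6.29% lies outside that interval. KAT2B, the paralog that can take the place of KAT2A, had 28.4 and 31.4 CPM in shControl and 33.5 and 32.2 CPM in shYEATS2, with a log2 fold change of 0.14 ± 0.085 (edgeR adjusted p = 0.175). The ratio of KAT2A to KAT2B went from 1.08 and 0.990 in shControl to 0.644 and 0.613 in shYEATS2. Likewise, the ratio of KAT2A to KAT14 went from 1.26 and 1.31 to 0.879 and 0.735.

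Among the adaptors, TADA2A, the Ada2 protein by which ATAC is told from SAGA, had 11.5 and 11.2 CPM in shControl and 16.7 and 14.8 CPM in shYEATS2. It was higher in both knockdown libraries, and its estimated rise was the largest of the 10 genes, with a log2 fold change of 0.49 ± 0.11 (SE; edgeR adjusted p = 0.000157), or 1.41-fold. TADA2B, its counterpart in SAGA, had 12.2 and 12.8 CPM in shControl and 10.2 and 10.9 CPM in shYEATS2 (log2 fold change −0.25 ± 0.12; edgeR adjusted p = 0.0829). Although TADA2B did not pass the test, all of its knockdown values lay below the controls, the opposite side to TADA2A. The ratio of TADA2A to TADA2B was 0.942 and 0.872 in shControl, and 1.63 and 1.36 in shYEATS2. TADA2A, with its 175 counts in the shallowest library, kept its call with any library left out, at log2 fold changes of 0.38 to 0.56.

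TADA3, an adaptor common to ATAC and SAGA, had 66.0 and 71.9 CPM in shControl and 75.5 and 66.8 CPM in shYEATS2. It is the member whose conditions overlapped, and its log2 fold change of 0.06 ± 0.071 did not pass the test (95% interval −0.08 to 0.20; edgeR adjusted p = 0.545). The sign turned to −0.01 without shControl 1 and to −0.06 without shYEATS2 1. SGF29, the tudor-domain subunit that reads methylated H3 in both complexes, had 8.52 and 10.5 CPM in shControl and 9.23 and 9.32 CPM in shYEATS2, with the knockdown values between the controls (log2 fold change −0.03 ± 0.13; edgeR adjusted p = 0.854). Thus neither KAT2B nor SGF29, the 2 further ATAC subunits, was called.

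For each of the 4 ratios computed (the 3 above and that of YEATS2 to its partners, below), the two-sided exact permutation test gave p = 0.333, before and after Benjamini-Hochberg adjustment. This is the smallest value that 2 libraries against 2 can give, so this test cannot reach the threshold whatever the size of the shift.

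Of the chromatin-reading and histone-fold proteins, DR1 rose most. DR1 (NC2β) is a histone-fold protein that with DRAP1 forms NC2, a repressor that binds the TATA-binding protein on DNA. DR1 had 80.28 and 80.35 CPM in shControl, almost equal, and 104 and 115 CPM in shYEATS2, both clearly above. The log2 fold change was 0.44 ± 0.066 (SE; edgeR adjusted p = 7.63e-08), or 1.36-fold (95% interval from 124% to 149% of control). It remained between 0.37 and 0.50 with any library left out, and past the threshold each time. DR1 is at chr1:93345907-93369493 on the + strand. Its antisense neighbour CCDC18-AS1, which covers 1.09% of DR1 exon sequence, moved the other way (log2 fold change −0.50; edgeR adjusted p = 0.000402).

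POLE3, a histone-fold subunit of DNA polymerase epsilon and of the chromatin-remodelling complex CHRAC, had 101 and 100.3 CPM in shControl and 122 and 109 CPM in shYEATS2. Both knockdown libraries were higher, shYEATS2 1 by more, and the log2 fold change was 0.21 ± 0.065 (edgeR adjusted p = 0.00669). The log2 fold change was 0.20 without shControl 1, 0.19 without shControl 2, 0.11 without shYEATS2 1 and 0.27 without shYEATS2 2. Only the last of these fits kept the call, and each has less power, with 1 library in a condition. Without the filter on low counts the call was also lost (0.16; adjusted p = 0.0703).

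ZZZ3, whose ZZ-type zinc finger binds the tip of the histone H3 tail, had 78.7 and 82.7 CPM in shControl and 92.0 and 93.2 CPM in shYEATS2. The knockdown libraries agreed closely and lay above both controls, with a log2 fold change of 0.20 ± 0.066 (edgeR adjusted p = 0.0108). The call was lost without shControl 1 (0.16; adjusted p = 0.238), without shControl 2 (0.23; adjusted p = 0.0683) and without the filter (0.15; adjusted p = 0.112). The rises of ZZZ3 and POLE3, at 1.15-fold each, were thus much less firmly placed than those of TADA2A and DR1.

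MBIP, which in ATAC links the complex to kinase signalling, had 14.2 and 13.6 CPM in shControl and 12.9 and 12.1 CPM in shYEATS2. Its values were lower in both knockdown libraries by little more than the spread, at a log2 fold change of −0.14 ± 0.11 (95% interval −0.37 to 0.08; edgeR adjusted p = 0.310). WDR5, a WD-repeat scaffold best known from the histone H3 lysine 4 methyltransferase complexes, had 55.5 and 60.2 CPM in shControl and 53.8 and 54.0 CPM in shYEATS2. The knockdown libraries were nearly equal and just below the lower control, and the log2 fold change was −0.10 ± 0.073 (95% interval −0.25 to 0.04; edgeR adjusted p = 0.263).

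**Figure D2:**
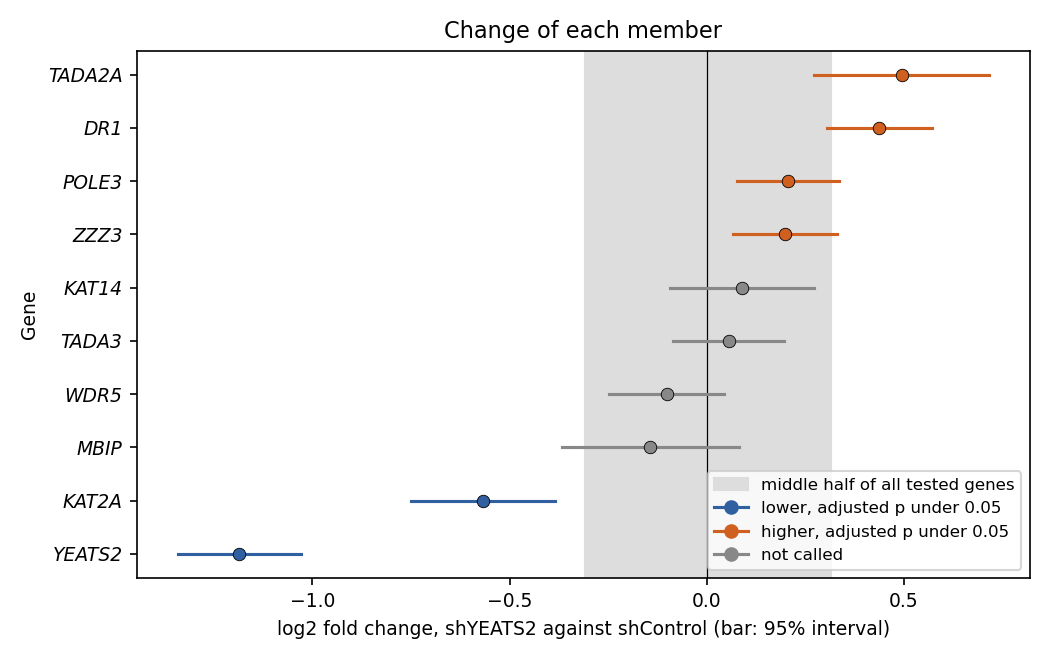
Log2 fold change of each gene in shYEATS2 against shControl with its 95% interval from edgeR, ordered by size, over the range of the middle 50% of tested genes (grey, −0.31 to 0.32). Beside YEATS2, only KAT2A, TADA2A and DR1 lie outside the grey band, and the intervals of KAT14, TADA3, WDR5 and MBIP cross 0.

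Of the 10 genes, YEATS2, KAT2A, TADA2A and DR1 kept their calls in these 10 settings and in the 4 fits without a library. Of the 10 genes, YEATS2 was the only one called with a change of at least 2-fold. DESeq2 called the same 2 genes lower (17.3% of all genes by that tool) and the same 4 higher (16.5% of all genes). Scaling by library totals alone raised the median of all genes from −0.01 to 0.13 and turned the overall balance from 4019 lower and 3857 higher to 2567 lower and 5441 higher (15.0% and 31.9% of all genes). Under that scaling, KAT14 (0.22; adjusted p = 0.0401) and TADA3 (0.19; adjusted p = 0.0277) were also called higher, which made 2 lower and 6 higher, and WDR5 changed sign to 0.03. Relative to the shifted median, KAT14 stood at 0.10, TADA3 at 0.07 and WDR5 at −0.09, and KAT2A, TADA2A and DR1 stood at −0.56, 0.50 and 0.45.

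**Figure D3:**
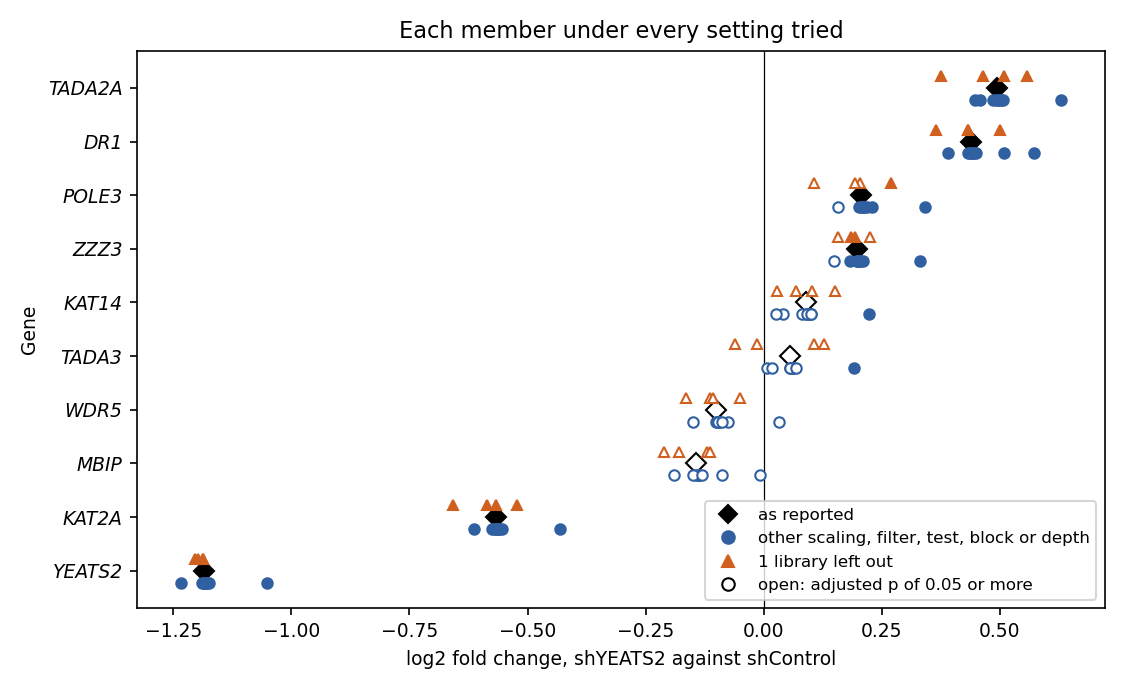
Log2 fold change of each gene as reported (diamond), under other settings (blue circles) and with 1 library left out (orange triangles). The 2-fold minimum and the adjusted p under 0.01 are not drawn. Filled symbols have an adjusted p under 0.05 and open symbols do not, whatever the setting. Symbols of YEATS2, KAT2A, TADA2A and DR1 are all filled, those of POLE3 and ZZZ3 are mixed, and the blue points farthest to the right are those scaled by library totals alone.

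To compare levels between genes, CPM were divided by the exon length of each gene in kilobases. In shControl the genes then spanned a wide range of level per length. POLE3 was the highest, at 38.7 and 38.5 CPM per kilobase, and TADA2A the lowest, at 2.04 and 1.98. Next after POLE3 came TADA3 (mean 16.7) and WDR5 (15.9), whose libraries overlapped, so that their order could not be told. The order then ran ZZZ3 (8.96), KAT2A (8.18), DR1 (7.35), YEATS2 (6.49), KAT14 (4.77), MBIP (4.06) and TADA2A, and each of these neighbours was separated in both control libraries. In control cells YEATS2 was at place 7 by exon length, 5 by longest transcript and 6 by longest coding sequence. By exon length it went to 2.86 and 2.84 CPM per kilobase in shYEATS2. This put it below KAT14 and MBIP and level with TADA2A, at 2.97 and 2.63. Also by exon length, KAT2A (mean 5.47) came to stand below DR1 (10.01) in shYEATS2. By coding length DR1 stood above KAT2A in shControl already, at places 2 and 8. Against the geometric mean of its 9 partners in CPM, YEATS2 stood at 1.64 and 1.63 in shControl, and at 0.674 and 0.693 in shYEATS2. The order in shControl depended on the length used. Of the 10 genes, 5 kept their place with the longest transcript and 3 with the longest coding sequence. The order in shYEATS2 was read by exon length alone. DR1, whose transcripts are mostly untranslated, moved from place 6 to place 2 by coding length, while POLE3 was highest and TADA2A lowest by each length.

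**Figure D4:**
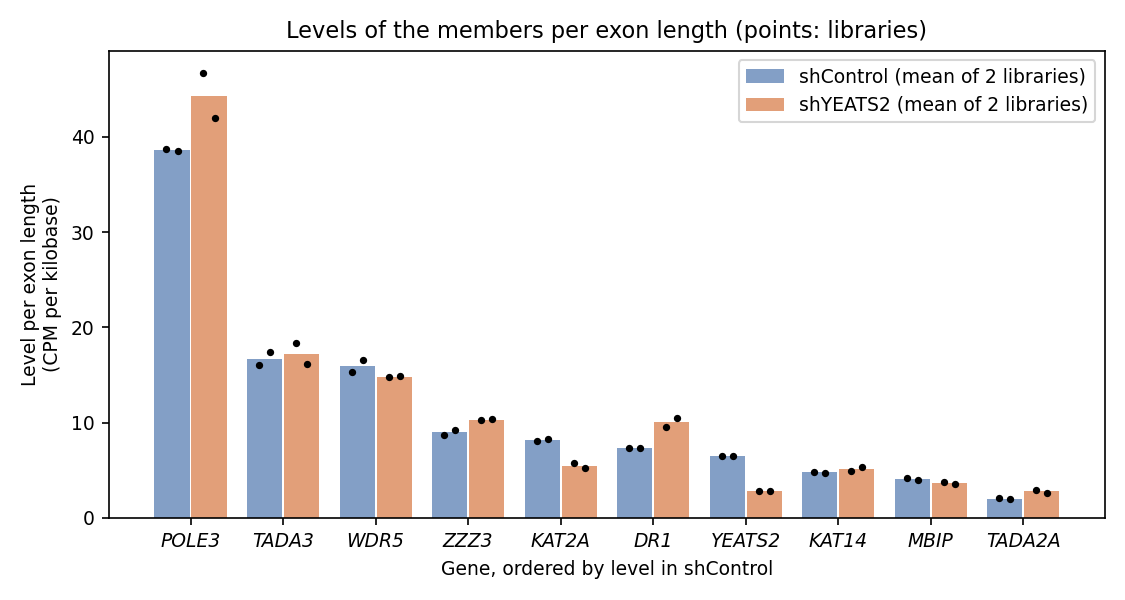
Level of each gene per exon length, in CPM per kilobase from 0, as the mean of 2 libraries (bars) with each library (points), ordered by the shControl mean. YEATS2 drops from 6.49 to 2.85 and comes level with TADA2A, and DR1 (10.01) stands above KAT2A (5.47) in shYEATS2.

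For comparison, lists that together held 58 genes were read, all of which passed the filter. They held the 2 further ATAC subunits, 21 SAGA subunits, 20 partners of WDR5 and 9 partners of DR1 and POLE3. The lists also held 3 other YEATS-domain genes and 3 genes that the study ties to YEATS2. Of these, 18 were called lower, 13 higher and 27 neither, where 23.6% of all tested genes were lower and 22.6% higher. Scaling by library totals alone turned the balance to 8 lower and 20 higher. In the 4 fits without a library, calls of both directions were lost, the higher calls of these lists more often than the lower. Those fits leave a condition with 1 library. Whether this differs from the calls of all tested genes was not tested, so it is not read as a trait of these lists.

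The 21 SAGA subunits absent from ATAC, next to which KAT2A and TADA3 work, had 6 lower and 6 higher, near the shares of all tested genes (23.6% and 22.6%), with a median log2 fold change of −0.04. TAF6L, a histone-fold subunit of SAGA, fell by 0.61 on the log2 scale (edgeR adjusted p = 3.14e-05), close to the fall of KAT2A. SF3B3, which SAGA shares with the splicing machinery, fell by 0.37 (adjusted p = 4.55e-07), and TADA1 fell by 0.34 (adjusted p = 0.0129, but 0.145 without shControl 2). TAF9 and its paralog TAF9B fell by 0.29 and 0.28 (adjusted p = 0.00210 and 0.00616), of which the first was lost without shControl 2 (0.0560) and the other without shControl 1 (0.109) or shYEATS2 1 (0.117). Among the rises, ATXN7L3, an adaptor of the SAGA deubiquitinase, rose by 0.33 (adjusted p = 3.57e-05) and kept its call in each fit, whereas ATXN7L1 at 0.40 (adjusted p = 0.0250) lost it without shControl 2 (0.305) or shYEATS2 1 (0.208), and ENY2 at 0.27 (adjusted p = 0.000589) lost it without shControl 2 (0.0805). Of the same module and family, the deubiquitinase USP22 had a log2 fold change of −0.04 and was not called (adjusted p = 0.619). ATXN7 and ATXN7L2, at low counts, had −0.54 and −0.59 and were not called either (adjusted p = 0.415 and 0.0852). ATXN7L3B was called higher at 0.18 (edgeR adjusted p = 0.0352), and ranged from 0.11 to 0.22 with a library left out. These were named after their values were seen.

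WDR5 did not pass the test, and among its 20 partners in the MLL/SET1 methyltransferase and NSL acetyltransferase complexes 8 were lower and 4 higher, beside 23.6% and 22.6% of all tested genes, with a median of −0.12. Nothing particular to WDR5 partners was read from these counts. CXXC1, which guides SET1 to CpG islands, fell by 0.52 (edgeR adjusted p = 1.53e-05), HCFC1 fell by 0.38 (adjusted p = 1.23e-06) and KMT2C fell by 0.34 (adjusted p = 2.04e-05), each kept in all 4 fits without a library. KMT2D, the paralog of KMT2C, rose by 0.32 (adjusted p = 4.40e-05) and kept its call too. RBBP5, which binds WDR5 directly in these complexes, rose by 0.25 (adjusted p = 0.00747), a call lost without shControl 1 (0.0711) or shControl 2 (0.130). KANSL2 rose by 0.24 (adjusted p = 0.0391), a call lost without shControl 1 (0.137), shControl 2 (0.272) or shYEATS2 1 (0.119).

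Of 9 partners of DR1 and POLE3, 3 were lower and 2 higher, near the 23.6% and 22.6% of all tested genes, with a median of −0.16. The partner of DR1 in NC2, DRAP1, had a log2 fold change of 0.16 (edgeR adjusted p = 0.0241), and TBP, to which NC2 binds, had 0.32 (adjusted p = 0.00509). Both are on the side of DR1. BTAF1, a further gene of this list, lay on the other side at −0.16 and was not called (edgeR adjusted p = 0.0588). It was named after its value was seen. The call of DRAP1 was lost without shControl 1 (0.180), shControl 2 (0.195) or shYEATS2 1 (0.230), and that of TBP without shControl 1 (0.0952). In contrast to POLE3, the catalytic subunit POLE fell by 0.41 (adjusted p = 7.25e-07) and POLE2 fell by 0.57 (adjusted p = 0.00453, and 0.0863 without shYEATS2 1). SMARCA5, the ATPase of CHRAC, fell by 0.27 (adjusted p = 0.000366).

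**Figure D5:**
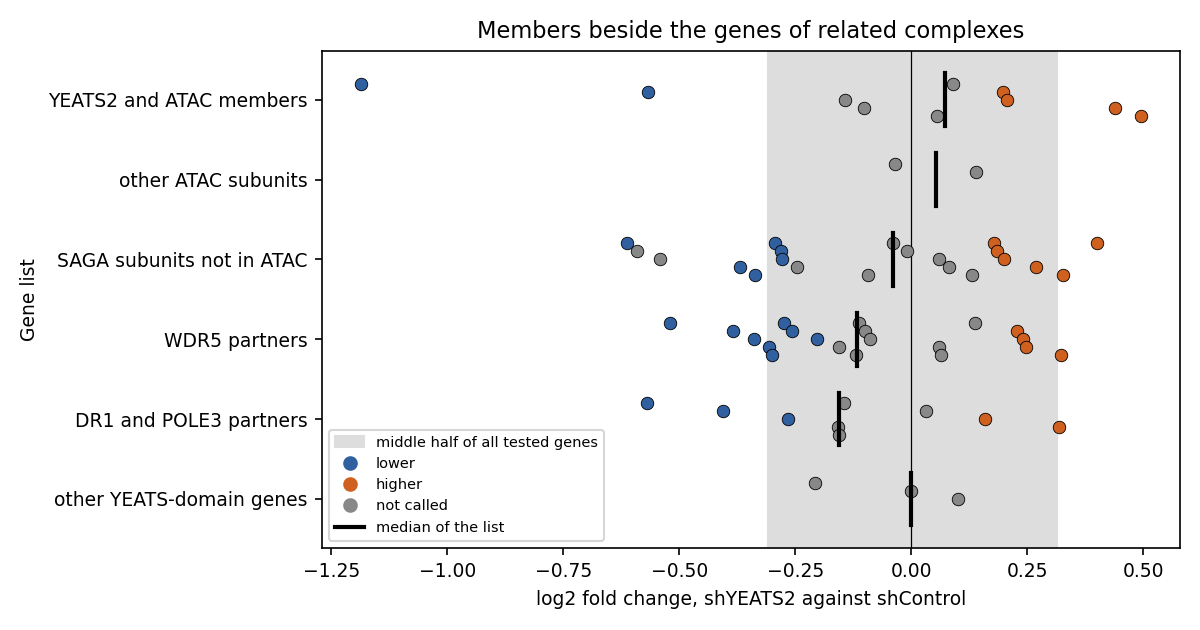
Log2 fold change of YEATS2 and its ATAC partners, of genes of related complexes and of other YEATS-domain genes, 1 point a gene. Blue points were called lower, orange points higher and grey points not called. The black bar is the median of the list, and the grey band holds the middle 50% of tested genes. The lists of SAGA, WDR5 and DR1 and POLE3 partners each hold calls in both directions, and the medians of all lists shown lie between −0.16 and 0.07.

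The other human YEATS-domain genes did not share the fall of YEATS2. YEATS4 had 21.1 and 21.9 CPM in shControl and 21.2 and 21.9 CPM in shYEATS2 (95% interval of the log2 fold change −0.19 to 0.19; edgeR adjusted p = 0.9999). MLLT1 had a log2 fold change of 0.10 ± 0.064 (adjusted p = 0.198) and MLLT3 of −0.21 ± 0.13 (adjusted p = 0.206). Of 3 genes that the study ties to YEATS2, SP1, the GC-box factor named above, fell by 0.23 on the log2 scale (edgeR adjusted p = 0.00302, and 0.108 without shControl 2). EP300, which encodes the crotonyl- and acetyltransferase p300, had a log2 fold change of 0.18 (adjusted p = 0.0192), a call lost without shControl 1 (0.127), without shControl 2 (0.239) and without shYEATS2 1 (0.143). GCDH, the glutaryl-CoA dehydrogenase of mitochondria that makes crotonyl-CoA, had −0.09 ± 0.11 (adjusted p = 0.4997). The study reported less GCDH protein in the nucleus of YEATS2-silenced cells, which RNA levels do not measure.

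The 5 genes whose pattern over the 4 libraries lay closest to that of YEATS2 were sought among 9363 others with a mean of at least 10 CPM. Closeness was the root mean square distance between log2 CPM centred on each gene's mean. SCD, a fatty acid desaturase, was nearest at 0.022, with 1725 and 1773 CPM in shControl and 769 and 742 CPM in shYEATS2. It was followed by TMEM100 at 0.028, COL12A1 at 0.031, ATP1B1 at 0.033 and KCTD12 at 0.034. Their log2 fold changes were between −1.21 and −1.13, beside −1.19 for YEATS2. None of the other 9 genes of ATAC was among them, as their smaller changes, with KAT2A the largest at −0.57, already implied.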

How the data were processed

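Polyadenylated RNA of BICR10 cells was measured in 2 shControl and 2 shYEATS2 libraries, made with a stranded kit and sequenced in pairs. The authors aligned reads to GRCh38 with STAR and deposited counts per Ensembl gene made with HTSeq, without normalization. The study names the version of HTSeq. The STAR version, annotation release and strand setting are not given in the sources used here. Between 15.3% and 16.5% of the tallied alignments were on no single gene and were left out. Of 60623 identifiers, 60295 matched GENCODE 44, which gave positions and exon lengths. Groups come from the sample titles.

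After filterByExpr, which kept 17058 genes, TMM factors were set and edgeR's quasi-likelihood test was run (version 4.0.16 in R 4.3.3, robust fit). A gene was called where its p, adjusted by Benjamini-Hochberg over all tested genes, was under 0.05, whatever its fold. A ± after a CPM level is the SD of 2 libraries, and after a log2 fold change the SE. The common coefficient of variation between replicates was 4.95%. Replicates differed by more than counting noise (chi-square per degree of freedom 5.95 in shControl and 5.39 in shYEATS2). Scripts were tested on simulated counts.

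The alternatives were DESeq2 1.42.0, limma-voom (limma 3.58.1), DESeq2's size factors, upper-quartile factors, library totals alone, no filter, at least 10 counts in every library, an adjusted p under 0.01, at least a 2-fold change, thinning, a replicate block and leaving out each library. No pairing by the replicate numbers in the titles was seen (correlation −0.018 of the differences between libraries 1 and 2 in the conditions). This value cannot tell whether the libraries were made in pairs. The genes, lists and markers were chosen with earlier results of these data known. Described were all 10 genes. Of the comparison lists, KAT2B, SGF29, TADA2B, TAF9, TAF9B and the YEATS-domain and study genes were always given, plus up to 3 called genes with the largest falls and 3 with the largest rises. The strand setting bears on genes that overlap others on the opposite strand (YEATS2, TADA3, DR1, WDR5 and POLE3), and KAT14 shares 18% of its exon sequence with PET117 on the same strand. The sequence upstream of 1 of the 10 genes is not reported here.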

Additional observations from a re-analysis of the deposited data

How the results depend on the processing

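In the 10 settings other than a 2-fold minimum, YEATS2, KAT2A, TADA2A and DR1 kept their direction and their call. A 2-fold minimum left 1 of the 10 genes lower (YEATS2) and 0 higher, 0 lower and 0 higher among the 58 genes of the comparison lists, and 631 lower and 1022 higher among all genes. These counts fell because the fold was added to the edgeR call. An adjusted p under 0.01 took the call from ZZZ3 (0.20). It left 16 lower and 6 higher in the comparison lists, and 3206 lower and 2966 higher among all genes. Without the filter, POLE3 (0.16) and ZZZ3 (0.15) lost their calls, which left 2 of the 10 genes higher. The comparison lists then had 21 lower and 4 higher, and all genes 4338 lower and 3074 higher. DESeq2 gave 13 lower and 7 higher comparison genes, beside 2949 lower and 2820 higher among all genes (17.3% and 16.5%). Library totals alone called KAT14 (0.22) and TADA3 (0.19) higher and turned WDR5 to 0.033. That scaling gave 8 lower and 20 higher comparison genes, and 2567 lower and 5441 higher among all genes. The moves under scaling by library totals and under the stricter adjusted p follow from how those settings were made. The cause of the other moves was not tested. The order of levels per length kept 5 of 10 places with the longest transcript and 3 of 10 with the longest coding sequence.

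With each library left out in turn, which leaves a condition with 1 library assumed to vary like the other condition, the genes called higher went from 2 to 4 of the 10 and from 3 to 13 of the comparison lists. POLE3 ranged from 0.11 to 0.27, ZZZ3 from 0.16 to 0.23, and TADA3 from −0.059 to 0.13, with −0.013 without shControl 1. The replicate number was also added as a block, although no pairing by these numbers was seen. The replicate block gave 2 lower and 4 higher of the 10 genes, and 4142 lower and 3870 higher in all, and YEATS2 stood at −1.19. It changed no call of the 10 genes.

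Groups of 2 libraries allow no test for an outlying library. At this depth the intervals of KAT14, TADA3, WDR5 and MBIP still allow changes of up to 0.27, 0.20, −0.25 and −0.37 on the log2 scale.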
